A study of Mus musculus with 32 samples.

Results

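The genes described here are 32 markers of macrophages and other leukocytes in interscapular brown adipose tissue (iBAT) of the mouse, followed over a day. They were taken as the 32 rows, of 50686 genes in the count table, whose Ensembl identifiers carry the chosen symbols. iBAT came from male C57BL/6J mice of 10 weeks, fed chow and not fasted, kept at mild cold under a cycle of equal light and dark periods and killed with CO2. Time is given as Zeitgeber Time (ZT), with lights on at ZT0 and off at ZT12, and 4 mice were sampled every 3 h from ZT0 to ZT21, with 1 RNA-sequencing library per mouse. All mice were of this 1 strain, age and diet, and no genotype or treatment was compared. Because whole tissue was sequenced, fewer cells of a type and less RNA per cell cannot be told apart.

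Brown fat burns lipid to make heat, and its adipocytes share the tissue with capillaries, nerves and resident leukocytes. Macrophages are usually the most frequent of these leukocytes. They depend on the receptor encoded by Csf1r, clear debris through scavenger and lectin receptors such as Cd163 and Mrc1, and make the C1q proteins that start the classical complement cascade. Dendritic cells, B cells and many macrophages also display peptides on MHC class II molecules to helper T cells, and leukocytes enter and are held in tissues by chemokine receptors such as Ccr2, Cx3cr1 and Cxcr4. In several organs the traffic of leukocytes between blood and tissue is known to follow the time of day.

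The libraries held between 16300770 and 18254659 counted reads, with a median of 17418661, and levels are given as CPM, the reads of a gene relative to its library's total after TMM normalisation. A count of 3, the limit that a count of 0 allows, was 0.172 CPM in a single library. Sequencing lanes followed the time points, with ZT0, ZT3 and ZT6 on lane 2, ZT9, ZT12 and ZT15 on lane 3, and ZT18 and ZT21 on lane 4, so that lane and time cannot be told apart across lanes. Time was therefore tested both over all 8 time points and within lanes only. The 8 clock genes used as a reference all passed the test within lanes. For the leukocyte genes 2 libraries stood apart from the others, ZT9 replicate 3 and ZT12 replicate 4. The counts of calls below are given with all libraries and, where they differ, without these 2 libraries, and their values are described after the time course.

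Of the 32 genes, 31 had enough counts to be tested, and S100a8, a calcium-binding protein of neutrophils, did not pass the filter with at most 0.599 CPM in any library. Levels of different genes were compared per length, as mean CPM per kilobase of exon (CPM/kb). On this scale Cd74 and Lyz2, the lysozyme of myeloid cells, were highest. Cd74, the invariant chain that guides class II molecules, reached 41.0 CPM/kb and Lyz2 29.5 CPM/kb, and the class II chains H2-Eb1, H2-Aa and H2-Ab1 lay between 10.9 and 15.9 CPM/kb. The 3 C1q genes were at 5.86 to 11.3 CPM/kb, with C1qb above H2-Ab1. The 11 macrophage surface receptors ranged from 0.202 CPM/kb for Itgam, the integrin chain CD11b, to 6.69 CPM/kb for Fcer1g, the signalling chain shared by Fc receptors. The T cell genes (0.140 to 0.221 CPM/kb) were near the bottom. The B cell genes (0.0743 to 0.365 CPM/kb) and the neutrophil genes (0.261 to 0.532 CPM/kb) ranked no higher than place 24 and place 20 of the 32. Ptprc, which encodes CD45 on all leukocytes, stood at 0.433 CPM/kb, but its annotated exons of 18313 bases join many transcript forms, so that this value is low for its length. Itgam shares 68.7% of its exon bases with Gm49368 on the same strand, and reads that fit both could have been left uncounted. The labels name the tissue and no leukocyte type, so the markers were checked as groups. All 11 macrophage surface receptors were counted in each of the 32 libraries, whereas Cd8a, Cd79a, S100a8 and S100a9 were at 0 in 1, 1, 4 and 3 libraries.

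**Figure D1:**
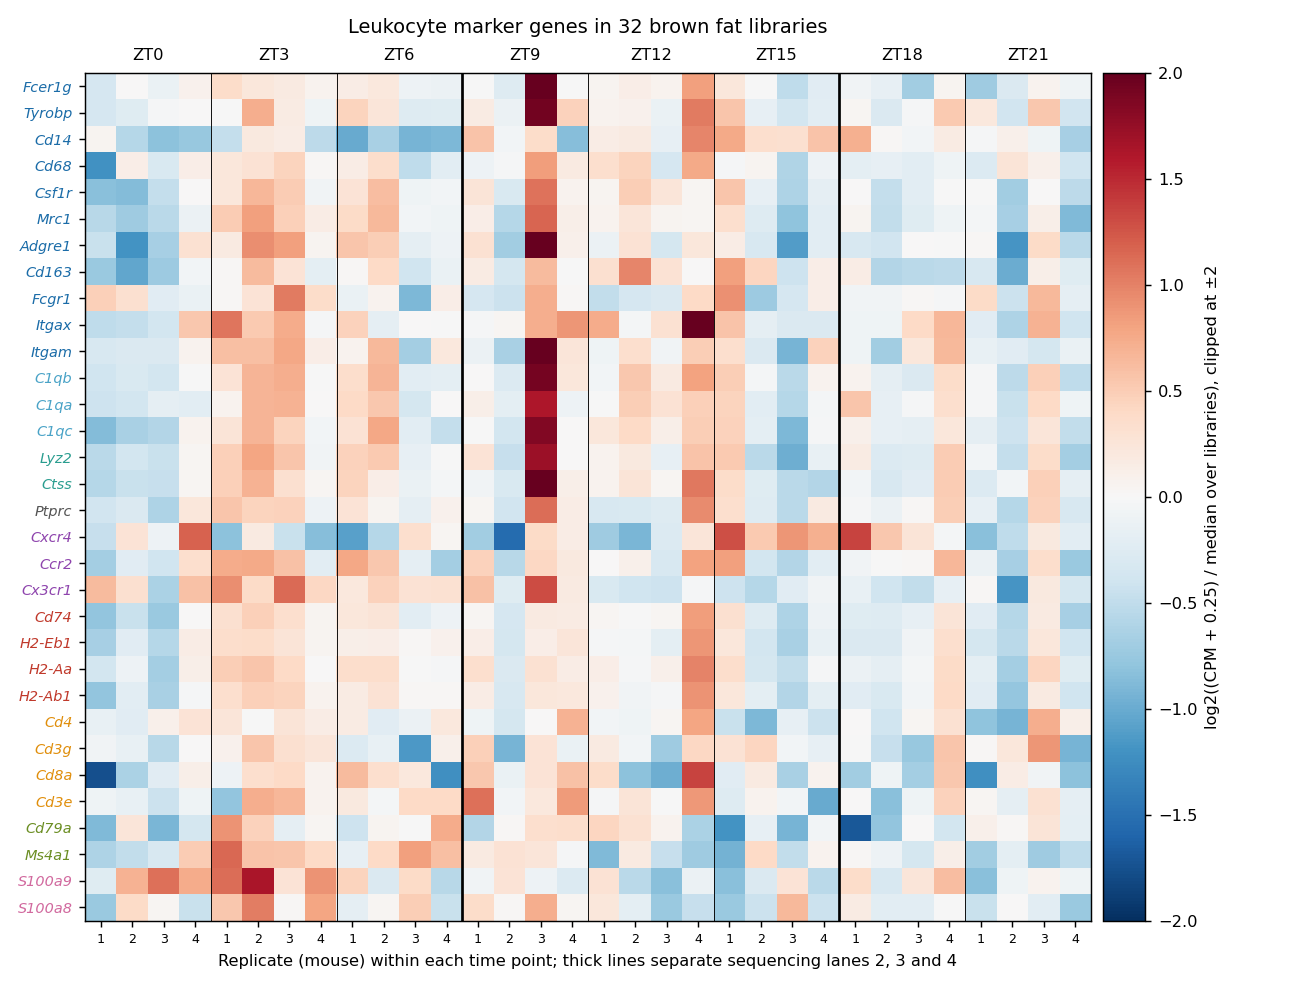
Heat map of the 32 leukocyte genes (rows, coloured by role) in the 32 libraries (columns, 4 mice per time point), as log2 of CPM + 0.25 relative to the gene's median over the libraries and clipped at 2 in either direction. Macrophage genes are dark red in ZT9 replicate 3 and MHC class II genes are orange in ZT12 replicate 4, ZT0 is mostly blue and ZT3 mostly red, and Cxcr4 is red at ZT15 where most rows are pale.

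Did the leukocyte genes change over the day? Across all time points, 8 of the 31 genes tested differed (edgeR quasi-likelihood F test, adjusted p under 0.05), or 25.8%, while 39.8% of all 15505 genes tested did. These were the macrophage genes Adgre1, Mrc1, Cd163 and Cd14, the chemokine receptors Cx3cr1 and Cxcr4, the B cell gene Ms4a1 and the neutrophil gene S100a9. A cosine of 24 h was called for 12 of 31 genes (38.7%), against 36.1% of all genes. The JTK test used in the study gave P under 0.05 for 7 of 31 (22.6%), against 36.4% of all genes, and after adjustment over all genes only Cx3cr1 (adjusted P = 0.00420) and Cd14 (adjusted P = 0.0150) were left, or 6.45% against 27.1%. Within lanes 2 of 31 genes were called (6.45%), Adgre1 and Cxcr4, against 21.4% of all genes. The share of leukocyte genes called was below that of all genes by each of these tests except the cosine. Without the 2 libraries that stood apart, a choice made after seeing the data, the counts were 7 genes over all time points, 7 for the cosine, 6 for JTK and 2 within lanes (Cxcr4 and Mrc1), against 39.8%, 31.4%, 33.7% and 23.4% of all genes. Other single mice moved the counts as well. Without ZT9 replicate 2, 14 genes were called over all time points and 4 within lanes, and within lanes the count was 7 without ZT0 replicate 4, 5 without ZT15 replicate 1, 4 without ZT21 replicate 3 and 1 without ZT15 replicate 3. By JTK it was 4 without ZT0 replicate 2 or ZT0 replicate 3.

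Fitted peaks were computed for all 31 genes, called or not. With all libraries, the peak of 21 of 31 genes lay between ZT7 and ZT10, against 14.5% of all genes, and without ZT9 replicate 3 and ZT12 replicate 4 this was 11 of 31, against 13.7% of all genes. Of the 12 genes called by the cosine with all libraries, 6 had their peak in this window (Adgre1, Csf1r, Mrc1, Fcer1g, C1qb and C1qc). Of the 7 called without the 2 libraries, 0 did, the nearest being Mrc1 at ZT6.99 and Cd163 at ZT10.5. The window was chosen after the peaks were seen. The median amplitude of the 31 genes was 0.30 on the log2 scale with all libraries and 0.21 without these 2, beside 0.14 over all genes in both cases. With all libraries, 10 genes had their peaks outside the window, 5 of which were called by the cosine with a peak before ZT7 or after ZT12. S100a9 peaked at ZT1.8 ± 1.1 (SE), Cx3cr1 at ZT4.7 ± 0.79, Ms4a1 at ZT5.1 ± 1.1, Cd14 at ZT15.0 ± 0.82 and Cxcr4 at ZT17.5 ± 1.3. These 5 peaks moved by little when the 2 libraries were left out, to ZT1.7, ZT4.1, ZT5.5, ZT15.6 and ZT18.0. The cosine call of Cxcr4 (adjusted p = 0.0460, edgeR) held in 12 of the 32 runs that left out 1 library, with an adjusted p of up to 0.119 without ZT18 replicate 1, and those of the other 4 genes held in all 32. With lane as an additional term in the cosine fit, 3 of 31 genes were called (9.68%, against 17.2% of all genes), namely Adgre1, Cx3cr1 and Cxcr4.

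**Figure D2:**
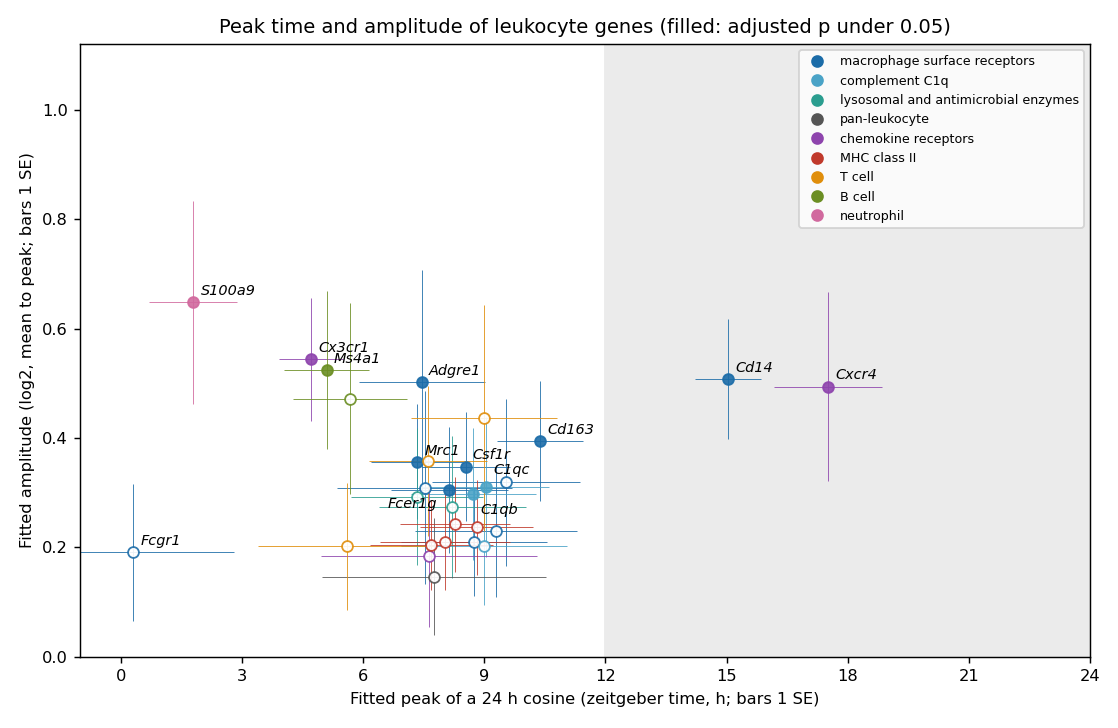
Fitted peak (x axis, Zeitgeber Time in h) and amplitude (y axis, log2 from mean to peak) of a 24 h cosine, with all libraries, for the 30 genes whose peak had an SE of at most 4 h, with bars of 1 SE and filled points for adjusted p under 0.05. Most points crowd around ZT7 to ZT10 at an amplitude of 0.2 to 0.4, and S100a9, Cx3cr1, Ms4a1, Cd14 and Cxcr4 stand away from them.

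Within a lane, the step with most changes was the one from ZT0 to ZT3, the start of the light period. Here 4 of 31 genes were called, all higher at ZT3 (12.9%, against 7.16% of all genes called higher and 13.8% called in either direction). These were Csf1r, the receptor for the macrophage growth factor CSF1, Mrc1, the mannose receptor, Cd74 and H2-Ab1. The fitted change from ZT0 to ZT3 was positive for 30 of the 31 genes, with a median of 0.72 on the log2 scale, beside a median of 0.0060 and a positive sign in 50.7% of all genes. Cxcr4 was the exception. The libraries of a time point are shared by all genes, so these signs are not separate observations.

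Mrc1 was counted at 8.47, 7.58, 8.57 and 11.7 CPM in the ZT0 mice and at 18.0, 22.4, 17.6 and 14.0 CPM in the ZT3 mice. All ZT3 mice exceeded all ZT0 mice, and the log2 fold change was 0.99 ± 0.28 (SE, adjusted p = 0.0197, edgeR). Csf1r was at 7.25, 7.05, 9.35 and 13.2 CPM at ZT0 and at 15.4, 21.0, 18.8 and 12.5 CPM at ZT3. A single ZT3 mouse lay below the highest ZT0 mouse, and the log2 fold change was 0.88 ± 0.27 (adjusted p = 0.0308, edgeR). Cd74 rose from 40.3, 51.2, 41.3 and 69.6 CPM to 87.0, 96.6, 87.9 and 72.1 CPM, a log2 fold change of 0.76 ± 0.22 (adjusted p = 0.0200, edgeR). H2-Ab1, the class II beta chain, rose from 15.8, 23.9, 17.6 and 27.1 CPM to 35.0, 38.4, 37.8 and 29.0 CPM, a log2 fold change of 0.73 ± 0.22 (adjusted p = 0.0277, edgeR). For both class II genes the groups did not overlap, and in all 4 genes ZT0 replicate 4 was the highest of its group and ZT3 replicate 2 the highest of its own.

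These calls were sensitive to single mice in both directions. No gene was called at this step without ZT0 replicate 1, without ZT0 replicate 3 or without ZT3 replicate 2, and 2 genes were called without ZT0 replicate 2 or without ZT3 replicate 3. Without ZT0 replicate 4 the count was 8, without ZT9 replicate 3 it was 9 (29.0%, against 8.05% of all genes called higher and 15.3% in either direction), and without ZT9 replicate 3 and ZT12 replicate 4 together it was 12 of 31 (38.7%, against 8.09% of all genes called higher and 15.2% in either direction). ZT9 and ZT12 are not part of the step, but their spread enters each gene's estimate of the replicate error. The 12 genes were Csf1r, Mrc1, Cd163, C1qa, C1qb, C1qc, Ctss, Lyz2, Cd74, H2-Aa, H2-Ab1 and H2-Eb1, all higher at ZT3, with log2 fold changes from 0.56 for H2-Eb1 to 0.99 for Mrc1. They hold all the C1q and class II genes, and no gene of the T cell, B cell or neutrophil groups. With all libraries, however, the estimates of all 4 T cell and 2 B cell genes were positive, with medians of 0.70 and 1.14. The medians of the C1q and class II genes were 0.72 and 0.67. The T cell, B cell and neutrophil genes had at most 35 counts in any library. For the largest estimates, Ms4a1 (1.20 ± 0.42) and Cd79a (1.09 ± 0.54), components of the B cell surface, the adjusted p was 0.0574 and 0.174.

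Markers of other cell types were measured alongside. The summed red blood cell genes (5 genes, none at 0 throughout) spanned 471 to 854 CPM at ZT0 and 265 to 546 CPM at ZT3. The estimate of all 5 was negative, with a median of -0.71, and none was called at the step. The 6 mast cell genes summed on average to 98.4 CPM at ZT0 (highest 127 CPM) and to 39.3 CPM at ZT3 (highest 46.3 CPM), nearly all of it Kit, which also marks other cells and was lower at ZT3 (log2 fold change -1.45 ± 0.45, adjusted p = 0.0338, edgeR), while Cma1, a mast cell protease, was higher (2.20 ± 0.58, adjusted p = 0.0133, edgeR). Of the 5 mast cell genes tested, 4 had positive estimates, all but Kit, with a median of 1.71 over the 5. Skeletal muscle genes varied from 3.21 to 3988 CPM among the ZT0 mice and from 6.17 to 5522 CPM among the ZT3 mice. The lymph node stroma genes stayed at or below 2.15 CPM in every library, with 2 of the 5 at 0 throughout. Of the endothelial genes, 5 of 6 estimates were positive and Cldn5, a tight junction protein, was higher at ZT3 (0.91 ± 0.29, adjusted p = 0.0360, edgeR). Of the brown adipocyte genes, 5 of 7 were negative and Cox7a1, a subunit of cytochrome c oxidase, was lower (-0.37 ± 0.10, adjusted p = 0.0203, edgeR). The part of these cell types in the step was not tested. No leukocyte gene was called in the steps from ZT3 to ZT6 (background 2.08%), ZT9 to ZT12 (0.0%), ZT12 to ZT15 (3.04%) or ZT18 to ZT21 (2.06%) by edgeR. From ZT3 to ZT6, 1 of 31 estimates was positive, beside 48.9% of all genes, and the median was -0.25. From ZT9 to ZT12 it was 12 of 31 (all genes 49.9%, median of the leukocyte genes -0.21), from ZT12 to ZT15 5 of 31 (all genes 48.7%, median -0.37) and from ZT18 to ZT21 8 of 31 (all genes 47.6%, median -0.15).

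**Figure D3:**
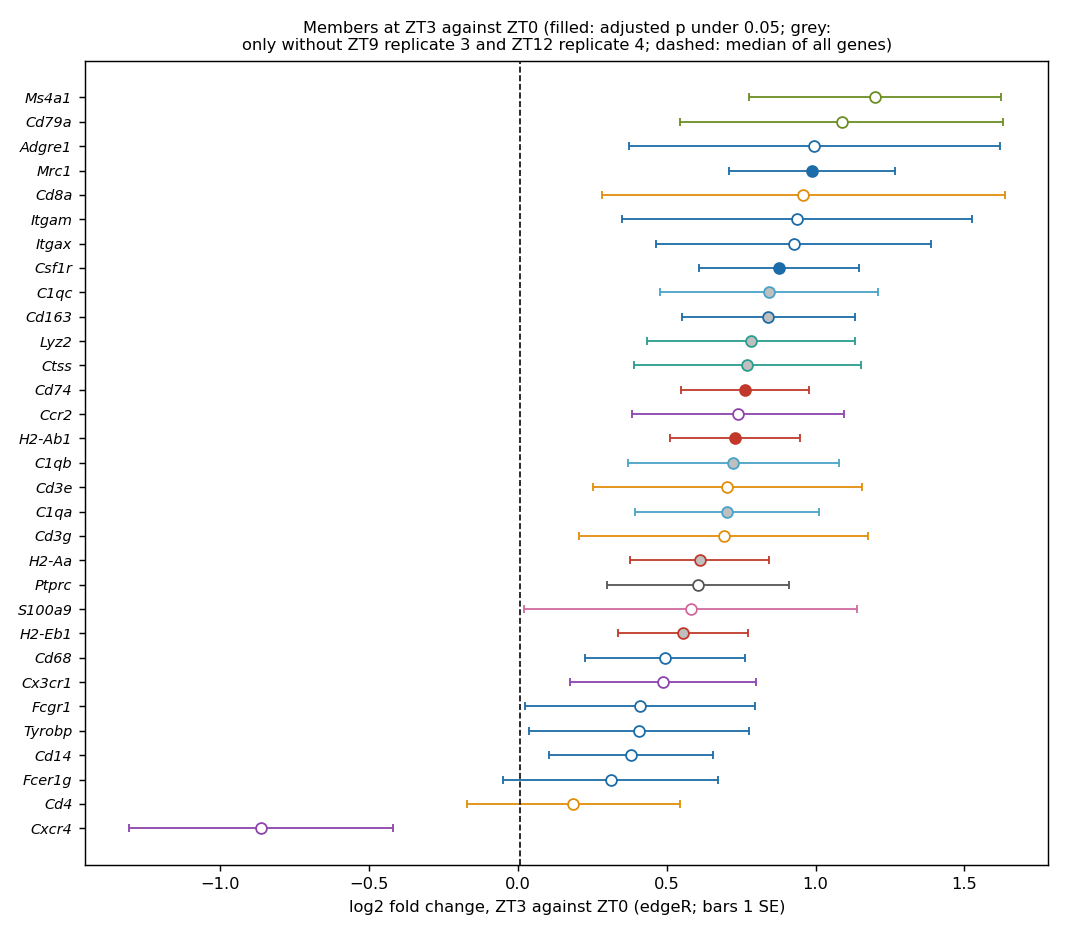
Log2 fold change from ZT0 to ZT3 (x axis) of the 31 leukocyte genes tested (y axis), with bars of 1 SE, filled points for adjusted p under 0.05, grey points for genes called only when ZT9 replicate 3 and ZT12 replicate 4 were left out, and a dashed line at the median of all genes. All points but that of Cxcr4 lie to the right of the line.

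Among the macrophage surface receptors, 4 of 11 changed over all time points, 6 followed a cosine and 1 was called within lanes, beside 39.8%, 36.1% and 21.4% of all genes. Without the 2 libraries that stood apart these counts were 3, 3 and 1. Mrc1 averaged 18.0 ± 3.42 CPM (SD, n = 4) at ZT3 and 9.07 ± 1.79 CPM at ZT0 (adjusted p over all time points = 0.0362, edgeR). Cd163, the scavenger receptor for haemoglobin bound to haptoglobin, was lowest at ZT0 (4.67 ± 1.53 CPM) and highest at ZT12 (9.84 ± 3.07 CPM, adjusted p = 0.0324, edgeR), with a fitted peak at ZT10.4 ± 1.1, beside ZT7.3 ± 1.1 for Mrc1. Both calls were lost without single mice, that of Mrc1 with an adjusted p of up to 0.0769 and that of Cd163 of up to 0.0709. With all libraries neither gene was called within lanes (adjusted p = 0.0649 for Mrc1 and 0.236 for Cd163, edgeR). With lane in the cosine fit neither was called (adjusted p = 0.075 for Mrc1 and 0.623 for Cd163, edgeR). Csf1r followed a cosine (adjusted p = 0.0135, edgeR) from 9.20 ± 2.84 CPM at ZT0 to 17.0 ± 7.72 CPM at ZT9, and this call was lost without ZT9 replicate 3 and ZT12 replicate 4 (adjusted p = 0.0520). Cd14, the co-receptor for bacterial lipopolysaccharide, had its fitted peak at ZT15.0. It was lowest at ZT6 (4.10 ± 0.474 CPM) and highest at ZT15 (11.0 ± 1.67 CPM), with an adjusted p over all time points of 0.00310 (edgeR) that stayed under 0.05 whichever library was left out. It was not called within lanes (adjusted p = 0.152), nor with lane in the cosine fit (adjusted p = 0.443), so for Cd14 time and lane cannot be told apart. Fcer1g followed a cosine only with ZT9 replicate 3 included (adjusted p = 0.0238, and 0.145 without it). Cd68, Fcgr1, Itgam, Itgax and Tyrobp were called by none of the edgeR tests.

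Fcer1g, whose chain carries the signal of Fc receptors, was between 3.11 and 9.47 CPM in 31 libraries and at 24.5 CPM in ZT9 replicate 3. At ZT0 it was at 4.11, 5.27, 4.76 and 5.61 CPM, at ZT3 at 6.83, 6.21, 5.97 and 5.52 CPM, at ZT6 at 5.85, 6.15, 4.88 and 4.84 CPM, and at ZT9 at 5.24, 4.34, 24.5 and 5.19 CPM. At ZT12 it was at 5.46, 5.75, 5.52 and 9.47 CPM, at ZT15 at 6.20, 5.20, 3.61 and 4.46 CPM, at ZT18 at 5.01, 4.69, 3.15 and 5.45 CPM, and at ZT21 at 3.11, 4.25, 5.51 and 4.94 CPM. All ZT3 mice lay just above all mice of ZT18 and ZT21, and ZT9 and ZT12 each held 1 high mouse among 3 of ordinary level.

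Adgre1, the adhesion receptor F4/80 that is widely used to stain mouse macrophages (chr17:57358691-57483527, plus strand, GRCm38), was called over all time points (adjusted p = 0.00634, edgeR) and within lanes (adjusted p = 0.0237, edgeR), and both calls rested on 1 mouse. At ZT0 it was at 2.95, 1.66, 2.50 and 5.11 CPM, at ZT3 at 4.68, 8.06, 7.42 and 4.29 CPM and at ZT6 at 6.14, 5.85, 3.59 and 3.79 CPM. At ZT9 it was at 5.12, 2.43, 57.5 and 4.41 CPM, at ZT12 at 3.78, 5.05, 3.15 and 4.82 CPM and at ZT15 at 4.57, 3.25, 1.75 and 3.52 CPM. At ZT18 it was at 3.25, 3.09, 4.11 and 4.09 CPM and at ZT21 at 4.19, 1.66, 5.45 and 2.76 CPM. ZT9 replicate 3 exceeded the next library 7.13 times, and all other libraries lay between 1.66 and 8.06 CPM. Without it, the adjusted p was 0.165 over all time points and 0.226 within lanes (edgeR).

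The C1q genes are 3 neighbours on chromosome 4 (C1qb at chr4:136880129-136886187, C1qc at chr4:136889804-136893065 and C1qa at chr4:136895917-136898803, all on the minus strand), and their 3 protein chains are built into the same C1q molecule. C1qb and C1qc followed a cosine (adjusted p = 0.0456 and 0.0458, edgeR) just under the threshold, and were still called in 13 and 15 of the 32 runs that left out 1 library, with the highest adjusted p without ZT9 replicate 3 (0.253 for C1qc), and C1qa was not called (adjusted p = 0.158). In C1qb the ZT0 mice were at 7.89, 8.47, 8.10 and 10.5 CPM, the ZT3 mice at 12.8, 17.0, 17.6 and 10.4 CPM and the ZT6 mice at 13.4, 17.0, 9.02 and 9.13 CPM. The ZT9 mice were at 10.5, 8.68, 40.3 and 12.3 CPM, the ZT12 mice at 10.1, 15.5, 11.9 and 18.6 CPM and the ZT15 mice at 14.9, 10.2, 7.16 and 11.0 CPM. The ZT18 mice were at 11.1, 9.27, 8.56 and 13.7 CPM and the ZT21 mice at 10.3, 7.23, 14.8 and 7.35 CPM. ZT0 was low and even, and ZT9 held both a low and by far the highest mouse. C1qc moved alike, with 5.52, 6.45, 6.73 and 10.7 CPM at ZT0, 12.3, 16.7, 14.1 and 9.87 CPM at ZT3, 12.6, 17.8, 8.86 and 7.29 CPM at ZT6 and 10.2, 7.87, 37.6 and 10.3 CPM at ZT9. It was at 12.1, 13.5, 11.1 and 14.6 CPM at ZT12, at 14.2, 8.92, 5.42 and 10.1 CPM at ZT15, at 11.1, 9.16, 9.07 and 12.0 CPM at ZT18, and at 9.05, 7.63, 12.2 and 7.18 CPM at ZT21. As in C1qb, ZT9 replicate 3 was by far the highest.

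Promoters of C1qb, C1qc and Mrc1, whose fitted peaks with all libraries lay between ZT7 and ZT10, and of Cxcr4, whose fitted peak lay elsewhere in the day, are shown to set their letters side by side. They are the 250 bases before the RefSeq transcription start (GRCm38.p6), 5′ to 3′ on the gene's strand, and RefSeq promoters were at hand for 23 of the 32 genes. The motifs searched, 4 in all, were looked for on both strands, and were the E-box of clock proteins (CACGTG), the D-box of DBP (TTATGTAA), the nuclear receptor half-site bound by ROR and REV-ERB proteins among others (AGGTCA) and a core of the sites of PU.1, a regulator of myeloid genes (GAGGAA). Capitals mark matches in either orientation. The RefSeq start of C1qc lies within the GENCODE extent of the gene given above.
Mrc1 (chr2:14229164-14229413, plus strand): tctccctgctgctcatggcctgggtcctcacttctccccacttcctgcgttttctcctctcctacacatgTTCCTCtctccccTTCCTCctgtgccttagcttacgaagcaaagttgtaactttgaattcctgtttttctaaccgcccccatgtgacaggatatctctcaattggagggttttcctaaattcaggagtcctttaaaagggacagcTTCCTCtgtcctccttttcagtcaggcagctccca
C1qb (chr4:136886201-136886450, minus strand): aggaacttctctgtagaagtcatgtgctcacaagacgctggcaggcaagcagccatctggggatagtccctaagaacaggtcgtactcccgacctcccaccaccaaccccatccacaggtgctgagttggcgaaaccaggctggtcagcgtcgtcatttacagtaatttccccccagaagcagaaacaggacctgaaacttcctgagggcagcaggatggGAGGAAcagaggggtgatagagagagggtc
C1qc (chr4:136892915-136893164, minus strand): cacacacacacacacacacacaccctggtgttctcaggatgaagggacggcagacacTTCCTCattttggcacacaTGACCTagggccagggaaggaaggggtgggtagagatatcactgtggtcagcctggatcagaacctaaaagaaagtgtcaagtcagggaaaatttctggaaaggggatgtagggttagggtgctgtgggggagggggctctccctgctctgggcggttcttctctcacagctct
Cxcr4 (chr1:128592300-128592549, minus strand): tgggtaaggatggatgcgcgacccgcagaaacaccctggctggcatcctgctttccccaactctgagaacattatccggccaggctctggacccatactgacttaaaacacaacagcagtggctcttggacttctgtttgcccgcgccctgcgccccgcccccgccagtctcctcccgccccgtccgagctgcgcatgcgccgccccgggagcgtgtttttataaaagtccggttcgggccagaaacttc
Mrc1 held 3 PU.1 cores, C1qb 1, and C1qc 1 beside a nuclear receptor half-site, and Cxcr4 held none of the motifs. The PU.1 core was in the promoters of 12 of the 23 genes and in 23.3% of all 32851 promoters of this length, the half-site in 3 of 23 and 14.0%, and the E-box and the D-box in none of the 23 and in 6.02% and 0.819%. A match of letters is no measure of binding.

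Cxcr4, the receptor for CXCL12 that holds leukocytes in bone marrow and tissue (chr1:128588199-128592293, minus strand, GRCm38), was the only gene called within lanes with and without the 2 libraries that stood apart (adjusted p = 0.0279 and 0.0114, edgeR). At ZT0 it was at 1.60, 2.84, 2.14 and 5.56 CPM, at ZT3 at 1.20, 2.67, 1.62 and 1.18 CPM and at ZT6 at 0.954, 1.48, 2.97 and 2.39 CPM. At ZT9 it was at 1.34, 0.636, 3.10 and 2.60 CPM, at ZT12 at 1.32, 1.10, 1.88 and 2.79 CPM and at ZT15 at 5.99, 3.43, 4.48 and 3.93 CPM. At ZT18 it was at 6.28, 3.48, 2.82 and 2.24 CPM and at ZT21 at 1.19, 1.55, 2.67 and 1.95 CPM. All mice of ZT15 exceeded all mice of ZT9, ZT12 and ZT21, whereas ZT0 and ZT18 each held 1 high mouse and overlapped with the rest. The step from ZT12 to ZT15 was 1.32 ± 0.44 on the log2 scale (adjusted p = 0.0980, edgeR), and that from ZT18 to ZT21 was -1.01 ± 0.44 (adjusted p = 0.261, edgeR). The call within lanes was lost without ZT15 replicate 1 (adjusted p = 0.0656) or without ZT15 replicate 3. Of a list of ligands and related genes of these receptors (8 genes, 7 tested), 6 differed over all time points, 5 followed a cosine and 3 differed within lanes, beside 39.8%, 36.1% and 21.4% of all genes, and without the 2 libraries that stood apart the counts were 6, 4 and 5. Cxcl12, the ligand of Cxcr4, peaked at ZT7.4 ± 0.46, with 169 ± 10.4 CPM at ZT9 and 112 ± 5.27 CPM at ZT21 (adjusted p within lanes = 0.000962, edgeR). Ackr3, which scavenges CXCL12, had a fitted peak at ZT1.1 ± 1.1 (cosine adjusted p = 0.0217, edgeR), a call that was lost without the 2 libraries.

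Cx3cr1, the fractalkine receptor of monocytes and resident macrophages, was the gene with the lowest p of all 31 by the cosine (adjusted p = 0.000697, edgeR) and by JTK. It averaged 2.88 ± 0.812 CPM at ZT3 and stayed between 1.26 and 1.33 CPM on average from ZT12 to ZT21, and the call over all time points held whichever library was left out (highest adjusted p = 0.0190). With lane in the cosine fit it was still called (adjusted p = 0.0434, edgeR), but within lanes its adjusted p was 0.0691. Its ligand Cx3cl1 peaked at ZT4.5 ± 0.75, with 6.61 ± 0.729 CPM at ZT3 and 3.42 ± 0.458 CPM at ZT0 (log2 fold change 0.95 ± 0.26, adjusted p = 0.0168, edgeR), so that the fitted peaks of this receptor and ligand were 0.26 h apart. Csf1 and Il34, the ligands of Csf1r, peaked at ZT15.0 ± 1.0 and ZT15.5 ± 0.59, and Csf1r itself at ZT8.5 ± 1.1. Ccr2, the receptor that guides monocytes out of blood, was not called by any test (adjusted p over all time points = 0.524), and among its ligands Ccl2 differed over all time points (adjusted p = 0.0355, edgeR) at no more than 0.682 CPM on average at any time point.

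**Figure D4:**
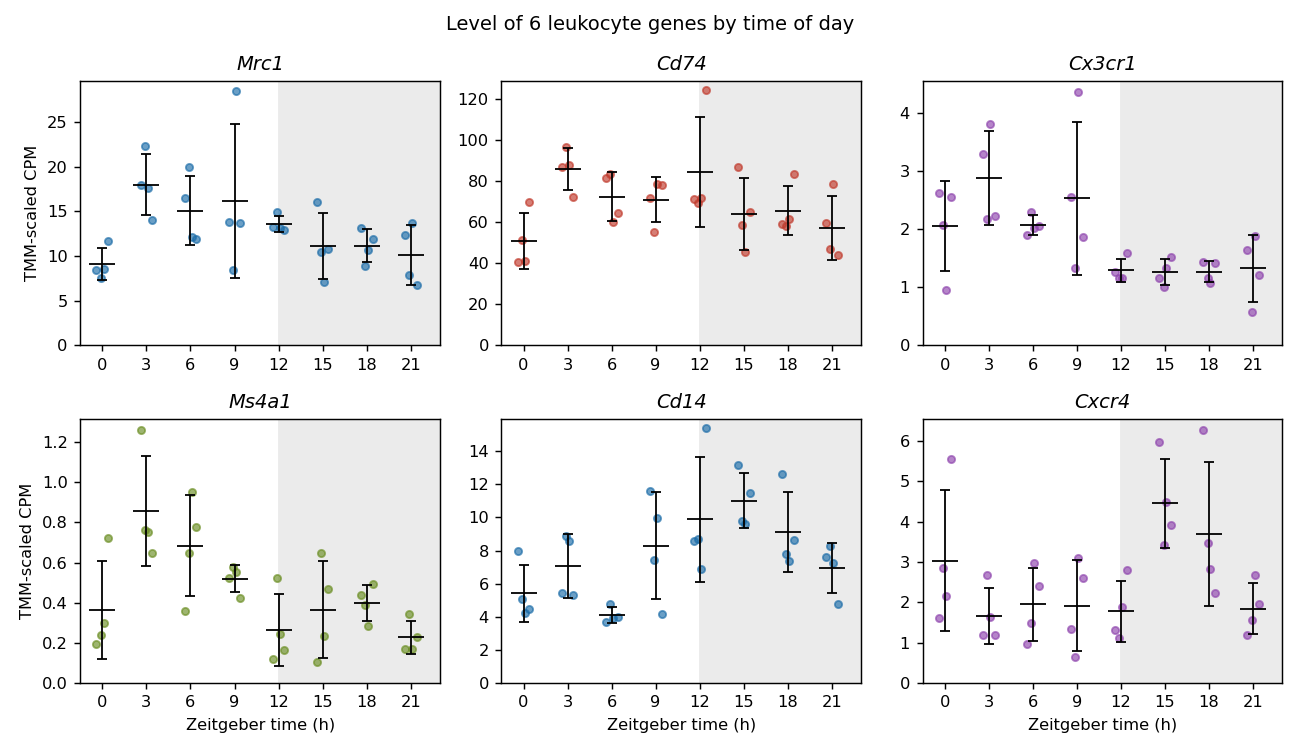
Levels of 6 leukocyte genes (y axes, TMM-scaled CPM, from 0) by Zeitgeber Time (x axes, h), with 1 point per mouse (4 per time point), the mean as a bar with the SD, and the dark period shaded. Mrc1, Cd74, Cx3cr1 and Ms4a1 were highest on average at ZT3, with single high mice at ZT9 (Mrc1, Cx3cr1) and ZT12 (Cd74), and Cd14 and Cxcr4 were highest on average at ZT15.

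None of the 4 MHC class II genes was called over all time points, by the cosine or within lanes, with adjusted p over all time points from 0.0508 for Cd74 to 0.180 for H2-Aa (edgeR). Their means were lowest at ZT0 and highest at ZT3, as for Cd74 at 50.6 ± 13.6 and 85.9 ± 10.2 CPM. Lyz2 and Ctss, a protease that trims the invariant chain in lysosomes, were not called over all time points either (adjusted p = 0.189 and 0.124, edgeR). Among the lymphocyte and neutrophil genes, Ms4a1, which encodes CD20, was highest at ZT3 (0.855 ± 0.274 CPM) and lowest at ZT21 (0.228 ± 0.0829 CPM, adjusted p over all time points = 0.0107, edgeR), and the call held whichever library was left out. Ms4a1 was not called within lanes (adjusted p = 0.0883, edgeR), nor with lane in the cosine fit (adjusted p = 0.312, edgeR). For Ms4a1, too, time and lane cannot be told apart. Cd79a, the signalling chain of the B cell receptor, was highest at ZT3 as well (0.795 ± 0.353 CPM) but was not called (adjusted p = 0.199). S100a9, a neutrophil protein, fell from 0.685 ± 0.355 CPM at ZT3 to 0.117 ± 0.126 CPM at ZT15 (adjusted p = 0.0178, edgeR), which rested on between 0 and 21 counts per library, and the call was lost without ZT3 replicate 2 (adjusted p = 0.0717). Nor was S100a9 called within lanes (adjusted p = 0.243, edgeR) or with lane in the cosine fit (adjusted p = 0.78, edgeR). Of the 10 further neutrophil markers, Csf3r alone could be tested, and it differed over all time points (adjusted p = 0.0201, edgeR). The T cell genes Cd3e, Cd3g, Cd4 and Cd8a stayed under 2 CPM in every library, and none was called. They had 0 to 35 counts per library.

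Single mice differed widely in the leukocyte genes. In ZT9 replicate 3, 14 of the 32 genes were at their highest of all libraries and 16 were at more than 2 times the mean of the other 3 mice of ZT9. The excess was 14.4 times for Adgre1, 9.38 times for Itgam, 4.98 times for Fcer1g, 4.57 times for Ctss, 3.24 to 3.98 times for the C1q genes, 3.49 times for Tyrobp, the partner chain of many myeloid receptors, and 3.36 times for Lyz2. It was smaller for Csf1r (2.11 times) and Mrc1 (2.38 times) and 1.08 to 1.17 times in the MHC class II genes, although the further MHC class II genes summed to 34.5 CPM there, against at most 33.3 CPM outside the 2 libraries. Of the T cell genes, Cd3e, Cd4 and Cd8a were below the mean of the other mice and Cd3g was at 1.41 times it. Itgam was at 6.47 CPM there and at most 1.51 CPM elsewhere. It was at 0.577, 0.592, 0.595 and 0.834 CPM at ZT0, at 1.32, 1.31, 1.51 and 0.881 CPM at ZT3, at 0.835, 1.36, 0.392 and 0.946 CPM at ZT6, and at 0.698, 0.405, 6.47 and 0.966 CPM at ZT9. At ZT12 it was at 0.720, 1.05, 0.728 and 1.21 CPM, at ZT15 at 1.05, 0.591, 0.291 and 1.17 CPM, at ZT18 at 0.716, 0.386, 0.957 and 1.36 CPM, and at ZT21 at 0.679, 0.631, 0.556 and 0.689 CPM. Only the 1 mouse stood out. Of other cell types, the summed red blood cell genes (1136 CPM, against 265 to 906 CPM outside the 2 libraries that stood apart) the further B cell genes (32.8 CPM, against 9.24 to 29.2 CPM) and the further neutrophil genes (4.48 CPM, against 1.03 to 3.25 CPM) were also highest in this library, the white adipocyte genes were the second highest (420 CPM, against 97.0 to 527 CPM), and the 25 further macrophage markers summed to 311 CPM, against 89.4 to 215 CPM. Skeletal muscle genes were low there (20.1 CPM). The part of other cell types in this library was not tested.

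ZT12 replicate 4 stood apart in another way. The 4 MHC class II genes were at their highest of all libraries there, at 124 CPM for Cd74, 81.2 CPM for H2-Aa, 57.4 CPM for H2-Eb1 and 52.0 CPM for H2-Ab1, or 1.76 to 1.96 times the mean of the other 3 mice of ZT12. Cd8a (4.58 times, 1.92 CPM), Itgax, the integrin chain CD11c of dendritic cells and some macrophages (3.70 times, 4.27 CPM), Cd4 (1.70 CPM) and Cd14 (15.4 CPM) were at their highest too, making 8 of 32. Of the macrophage surface receptors, 8 of 11 were above the mean of the other mice, from 1.21 times for Adgre1 to 3.70 times for Itgax, as were the C1q genes, Ctss (1.94 times) and Lyz2 (1.45 times). Csf1r (0.846 times), Mrc1 (0.938 times), Cd163 (0.675 times) and the B cell genes Cd79a (0.373 times) and Ms4a1 (0.557 times) were below the mean of the other mice. Its further T and NK cell genes summed to 23.7 CPM, against 5.30 to 16.3 CPM outside the 2 libraries. With no replicate of either pattern, these are descriptions of 2 mice.

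**Figure D5:**
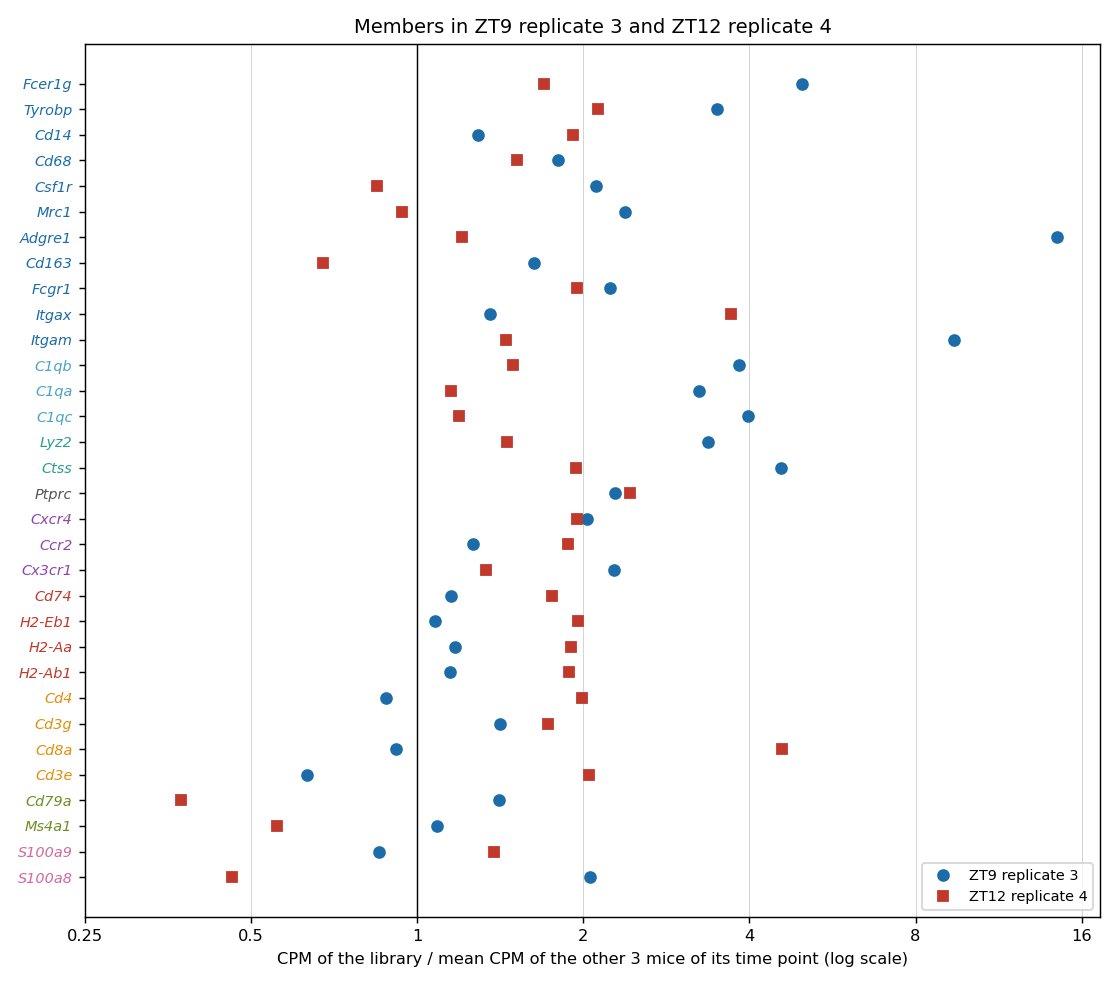
CPM of each of the 32 leukocyte genes (y axis, coloured by role) in ZT9 replicate 3 (blue circles) and ZT12 replicate 4 (red squares) over the mean of the other 3 mice of the same time point (x axis, log scale, with a line at 1). Blue circles lie furthest right for Adgre1 (14.4) and Itgam (9.38), and red squares for Cd8a (4.58) and Itgax (3.70).

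Within time points, the MHC class II, C1q and many macrophage genes rose and fell together from mouse to mouse. As a description, deviations of log2 CPM from the time-point means were correlated over the 32 libraries, which share their time-point means, their scaling and, for some genes, the same 2 high mice. The median Pearson r was 0.942 over the 6 pairs of MHC class II genes and 0.931 over the 3 pairs of C1q genes, and Csf1r and Mrc1 had an r of 0.940, beside a median of -0.001 over all pairs of genes. Without ZT9 replicate 3 and ZT12 replicate 4 these were 0.924, 0.878 and 0.922. Between groups, MHC class II and C1q genes had a median r of 0.593 with all libraries and 0.752 without the 2. Ptprc followed the MHC class II genes (median r of 0.859, and 0.915 without the 2) and the C1q genes (0.753 and 0.733). Ccr2 and Cd74 had an r of 0.897, and 0.892 without the 2. Cd14 was more loosely tied to the other macrophage genes, down to an r of 0.0823 with Itgax (-0.243 without the 2). Of the chemokine receptors, Cxcr4 had the lowest r with Ptprc, 0.494 (0.313 without the 2). Its r with Ccr2 was 0.256 (0.154 without the 2). The T cell genes, at low counts, had a median r of 0.271 among themselves (0.199 without the 2), and the B cell genes had a median r of -0.0504 with the MHC class II genes (0.0614 without the 2) and of -0.0221 with the macrophage surface receptors (-0.0805 without the 2). S100a9 had a median r of -0.124 with the macrophage surface receptors (-0.173 without the 2) and an r of -0.0448 with Ptprc (-0.134 without the 2). The B cell genes and S100a9 had at most 21 counts per library. The sum over the 32 genes ranged from 212 CPM in a ZT0 mouse to 666 CPM in ZT9 replicate 3, and by time point it was lowest at ZT0 (252 ± 55.6 CPM, SD, n = 4) and highest at ZT3 (410 ± 65.5 CPM).

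Genes of the same cell types outside the 32 were counted from lists. Of 25 further macrophage markers, 5 differed over all time points, among them Mertk, Aif1, Siglec1 and Laptm5, 6 followed a cosine and 1 differed within lanes, beside 39.8%, 36.1% and 21.4% of all genes, which are also the shares to set the other lists against. Aif1 and Laptm5 were highest in ZT9 replicate 3, at 7.25 CPM (at most 1.75 CPM elsewhere) and 35.2 CPM (at most 15.2 CPM elsewhere). Without the 2 libraries that stood apart, 24 of these markers were tested and the counts were 5, 4 and 2, with Aif1 and Mertk no longer called over all time points. The gene called within lanes with all libraries was Siglec1, the sialic acid receptor CD169 of tissue macrophages, which was at 1.72 ± 0.537 CPM at ZT0 and 5.35 ± 2.14 CPM at ZT3 (log2 fold change 1.63 ± 0.27, adjusted p = 0.000344, edgeR), a larger change than in any of the 31 genes tested. The estimate from ZT0 to ZT3 was positive for all 25, with a median of 0.88. Of 7 further MHC class II genes tested, 2 differed over all time points and none within lanes by edgeR (3 with an unadjusted p under 0.05), with and without the 2 libraries, and H2-DMb1, part of the molecule that loads peptides on class II, was higher at ZT3 (0.78 ± 0.25, adjusted p = 0.0385, edgeR). Of 10 further T and NK cell genes tested, 3 differed over all time points, 2 followed a cosine and 2 differed within lanes (3, 2 and 1 of 9 without the 2 libraries), and the T cell receptor chain Cd247 (1.40 ± 0.29, adjusted p = 0.00248, edgeR) and Nkg7, a protein of cytotoxic granules (1.52 ± 0.52, adjusted p = 0.0491, edgeR), were higher at ZT3. Cd247 stood at 1.61 to 7.43 CPM, whereas Cd3d of the same list reached at most 0.779 CPM. In ZT12 replicate 4, where this list summed highest, Cd247 was at 3.40 CPM. Of 7 further B cell genes tested, 3 differed both over all time points and within lanes (Cd79b, Ighm and Ighd) and 4 followed a cosine, and without the 2 libraries the counts were 3 over all time points, 3 for the cosine and 0 within lanes by edgeR, where 4 had an unadjusted p under 0.05. Of 5 dendritic cell genes tested 1 differed, Zbtb46, over all time points and within lanes. Zbtb46 also marks endothelial cells, and stood at 19.0 to 39.9 CPM, while the other 5 genes of the list (Flt3, Xcr1, Clec9a, Ccr7 and Cd209a) stayed at or below 2.14 CPM in every library. It was lowest at ZT9 (mean 28.1 CPM) and ZT12 (23.5 CPM), where the endothelial genes summed on average to 767 and 692 CPM, beside 770 to 952 CPM at the other time points. At ZT21, however, the endothelial sum (770 CPM) was close to that of ZT9, while Zbtb46 was at 33.0 to 35.5 CPM. Whether Zbtb46 followed the endothelial genes was not tested. None of the 5 red blood cell and 8 skeletal muscle genes was called over all time points, by the cosine or within lanes by edgeR, although 4 of the red blood cell genes had an unadjusted p under 0.05 within lanes (0 without the 2 libraries), while 4 of 6 endothelial genes differed over all time points and 2 within lanes (5 and 1 without the 2 libraries).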

How the data were processed

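RNA was sequenced from iBAT of 32 mice, 4 at each of 8 time points, and each library is 1 mouse. The authors aligned reads with GSNAP to build mm10 and counted them per gene with HTSeq 0.6.1, and the deposited values are raw read counts of 50686 genes. The strand setting of the counting is not given in the sources used here, so reads of overlapping genes on opposite strands, as for Csf1r and Hmgxb3 (15.1% of the exon bases of Csf1r), may not be told apart. No row lacked a gene identifier (50376 had a symbol) and no column was left out. Copies made by PCR cannot be recognised in these reads, so the limit of 3 counts covers counting error only.

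Genes were filtered with filterByExpr (15505 left), scaled by TMM and tested with the quasi-likelihood F test of edgeR 4.0.16 in R 4.3.3 over all 8 time points (7 contrasts), for cosine and sine terms of 24 h, for the 5 contrasts between neighbouring time points of a lane together, and for each of these alone. P-values were adjusted by Benjamini-Hochberg over all tested genes, with 0.05 as threshold. Amplitudes and peaks came from least squares on log2 CPM (prior count 2). JTK was reimplemented with templates of 21 and 24 h and an exact null, on CPM. The scripts were tested on simulated data. Coordinates and exon lengths are from GENCODE vM21 (GRCm38, the same assembly as mm10), which is later than the annotation the authors counted with.

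The 32 genes and the gene lists were chosen with earlier results of these data known. Values of every library are given for the genes called within lanes and for the 4 others with the largest ratio of the highest to the next library (Itgam, Fcer1g, C1qb and C1qc), and those of ZT0 and ZT3 for the genes called at that step, added after their values were seen. The closest pair of libraries of a time point differed by a mean chi-square of 7.97 per gene, so no library was counted as a repeat. Nothing says how mice were housed or handled together, and p-values set differences against the spread between these mice. Those over all time points and of the cosine without lane in the fit also take in differences between lanes. Alternatives were other scalings, no filter, no mitochondrially encoded genes, DESeq2 1.42.0, lane or replicate terms and each library left out.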

Additional observations from a re-analysis of the deposited data

Results flagged for a closer look

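For each gene and time point, the highest and the lowest of the 4 mice were set against the others by Dixon's test. Of 256 groups, 28 held a mouse far from its 3 companions (10.9%, where chance gives about 5%), 27 of them on the high side and 1 on the low side. The groups share mice and genes that move together, so they are not independent.

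In ZT9 replicate 3 this held for 8 genes, of the macrophage surface receptors, C1q and lysosomal enzymes: Adgre1 (57.5 CPM, others 2.43 to 5.12), Itgam (6.47 CPM, others 0.405 to 0.966), Tyrobp (12.6 CPM, others 2.89 to 4.41), Fcer1g (24.5 CPM, others 4.34 to 5.24), C1qa (29.9 CPM, others 8.33 to 10.4), C1qb (40.3 CPM, others 8.68 to 12.3), C1qc (37.6 CPM, others 7.87 to 10.3) and Ctss (23.5 CPM, others 4.34 to 5.92). In ZT12 replicate 4 it was 9 genes, 4 of them of MHC class II: Ptprc (14.6 CPM, others 5.88 to 6.19), Tyrobp (6.74 CPM, others 2.85 to 3.37), Fcer1g (9.47 CPM, others 5.46 to 5.75), Ctss (11.5 CPM, others 5.58 to 6.51), Cd74 (124 CPM, others 69.4 to 71.5), H2-Aa (81.2 CPM, others 40 to 44.3), H2-Ab1 (52 CPM, others 26.3 to 29.4), H2-Eb1 (57.4 CPM, others 27.2 to 30.5) and Cd4 (1.7 CPM, others 0.813 to 0.91).

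The other such values were Itgam (0.834 CPM, others 0.577 to 0.595), Itgax (1.33 CPM, others 0.513 to 0.595) and Ctss (5.61 CPM, others 3.59 to 3.91) in ZT0 replicate 4, Itgax (1.37 CPM, others 0.641 to 0.709) and Tyrobp (4.73 CPM, others 2.39 to 2.78) in ZT15 replicate 1 and Ccr2 (7.74 CPM, others 4.52 to 4.84) and Cd74 (83.6 CPM, others 58.1 to 61.7) in ZT18 replicate 4. Single values were Mrc1 (14.9 CPM, others 12.9 to 13.3) in ZT12 replicate 2, Cd163 (7.98 CPM, others 4.69 to 4.91) in ZT18 replicate 1, S100a8 (0.408 CPM, others 0 to 0.0591) in ZT15 replicate 3 and, on the low side, H2-Ab1 (22.1 CPM, others 30.7 to 32.4) in ZT9 replicate 2.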

How the results depend on the processing

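With other scalings, without the filter and without mitochondrially encoded genes, the counts of leukocyte genes called stayed within 1.5 times those reported. The cosine was called for 3 genes with lane in the fit and for 7 without ZT9 replicate 3 and ZT12 replicate 4 together. Within lanes, DESeq2 called 7 genes and the replicate block 1. The steps held 12 calls without these 2 libraries, 4 with the replicate block and 6 with DESeq2. Adjusted JTK P-values left 2 genes, and no replicate block was fitted with JTK. Leaving out 1 library at a time gave 6 to 14 genes over all time points (14 without ZT9 replicate 2), 8 to 17 for the cosine, 1 to 7 within lanes (1 without ZT15 replicate 3, 7 without ZT0 replicate 4), 0 to 9 step calls and 4 to 10 genes by JTK. The cause was not tested. The replicate block gave 6 genes over all time points and 10 for the cosine; same-numbered mice share only a number, since deviations of same-numbered libraries had a median correlation of -0.119 and those of other numbers 0.0738. Of 4864 values of single genes under these alternatives, 4635 stayed on the same side of the threshold, 122 lost and 107 gained a call, and none reversed. The T cell, B cell and neutrophil genes had at most 35 counts in any library.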

Other observations

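Over the whole transcriptome, 74 genes of at least 1 CPM were more than 2 times as high in ZT9 replicate 3 as in any other library, the most of any library, followed by 23 in ZT12 replicate 4 and 16 in ZT15 replicate 1. The genes named here were chosen after their values were seen. In ZT9 replicate 3 they included receptors of myeloid cells: Marco, a scavenger receptor, was at 5.48 CPM (99 counts) there and at most 0.0592 CPM elsewhere, Siglece was at 8.24 CPM and at most 1.07 CPM elsewhere, Fcrls was at 37.2 CPM and at most 4.91 CPM elsewhere, and the formyl peptide receptor Fpr1 was at 3.21 CPM and at most 0.175 CPM elsewhere. Slc13a3, a transporter of dicarboxylates, was at 12.9 CPM and at most 1.26 CPM elsewhere.

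In ZT12 replicate 4 the 23 genes included GTPases induced by interferon, Gbp2 (146 CPM, at most 61.7 CPM elsewhere), Iigp1 (142 CPM, at most 58.4 CPM elsewhere) and Igtp (85.3 CPM, at most 40.9 CPM elsewhere), the immunoproteasome subunits Psmb8 (73.2 CPM, at most 32.2 CPM elsewhere) and Psmb9 (36.5 CPM, at most 17.2 CPM elsewhere), and the lymphocyte genes Gzma, Cd5, Cd27 and Trbc1 (1.15 to 2.25 CPM). Of the 32 genes, Itgax was among them, and Adgre1, Itgam, Fcer1g, Ctss, C1qb and C1qc were among the 74.

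The 6 mast cell genes had mean sums of 98.4 CPM at ZT0, 101 CPM at ZT15 and 93.9 CPM at ZT18, and of 31.8 to 39.3 CPM from ZT3 to ZT9. This was carried by Kit (adjusted p within lanes = 0.00235, edgeR), whereas the mast cell protease gene Mcpt4 was highest at ZT9 (1.43 CPM) and lowest at ZT0 (0.292 CPM).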
